A study of Mus musculus with 18 samples.

Results

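The genes described here are 10 effectors and targets of the Wnt pathway in mouse pluripotent cells that lose their kinase inhibitors as they leave the naïve state. They are the Tcf factors Tcf7, Tcf7l1 and Tcf7l2, β-catenin (Ctnnb1), the inhibitors Axin2, Nkd1, Notum and Dkk1, and the transcription factors Sp5 and Cdx1. They were chosen by gene symbol, which gave 10 of the 45706 genes in the count table, and all 10 passed the filter on low counts, which asked for 0.607 CPM (counts scaled to a common library total) in at least 3 libraries. Sp5 reached that level in 3 libraries, 2 of wt cells and 1 of KO#1, all at 0 h, and Dkk1 in 3, all labelled KO#2, so a gene so chosen had to be higher there and the calls of Sp5 and Dkk1 below are descriptions only. Induced pluripotent stem cells (iPSCs) of 3 lines, Hmga2 wt, Hmga2 KO#1 and Hmga2 KO#2, were sequenced before (0 h) and 24 h after induction into epiblast-like cells (EpiLCs), giving 6 groups of 3 libraries. Hmga2 encodes a chromatin protein of the high mobility group, and wt cells and each KO line were 1 clone. A difference of genotype therefore cannot be told apart from a difference of clone. The tests measure the spread between replicates of a clone, not between clones. At 0 h the cells grew on inactivated fibroblast feeders in medium with serum, leukaemia inhibitory factor (LIF) and the inhibitors PD0325901, which blocks the kinase MEK, and CHIR-99021, which blocks the kinase GSK3. At 24 h they stood on a basement membrane coating in serum-free medium with Activin A and bFGF, whose recipe lists neither inhibitor and no LIF. The change of medium, the loss of feeders and the time therefore cannot be told apart. The sample labels and the study's methods give the concentrations of the inhibitors the opposite way round, and the treatment label is the same at both times, so the time label was used. The deleted allele is not described in the labels.

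Wnt proteins act by stopping GSK3 and its partners from marking β-catenin for destruction. The β-catenin that is spared enters the nucleus and binds the Tcf/Lef factors, which otherwise hold their targets silent, and CHIR-99021 gives the same effect by blocking GSK3 directly. In naïve mouse pluripotent cells Tcf7l1 is known mainly as a repressor of the self-renewal genes, and Axin2, Sp5, Cdx1, Nkd1, Notum and Dkk1 are known as targets that Wnt signalling turns on, several of which then dampen it.

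A Tcf/Lef binding site is commonly written as a short core in 1 of 4 spellings of 7 letters, and these were searched on both strands in windows of 300 bases around the start sites (250 before and 50 after). RefSeq windows of GRCm38.p6 were found for 8 of the 10 genes, while Notum and Cdx1 had no window in the set used. Of the 32851 windows of all genes, 5.85% held the spelling CTTTGTT, 5.14% held the spelling CTTTGAA, 3.73% held the spelling CTTTGAT, 3.63% held the spelling CTTTGTA and 16.9% held any of them. The spellings share their first 5 letters, and the matches printed do not overlap each other. The Sp5 and Dkk1 windows are shown because each held 2 matches, and that of Axin2 because the 24 h change of this gene differed between the lines. They lie at chr2:70474673-70474972 (plus strand), chr19:30549447-30549746 (minus strand) and chr11:108920099-108920398 (plus strand). Matches are in capitals, and one on the opposite strand is printed as its complement read 5′ to 3′ on the strand shown.
Sp5: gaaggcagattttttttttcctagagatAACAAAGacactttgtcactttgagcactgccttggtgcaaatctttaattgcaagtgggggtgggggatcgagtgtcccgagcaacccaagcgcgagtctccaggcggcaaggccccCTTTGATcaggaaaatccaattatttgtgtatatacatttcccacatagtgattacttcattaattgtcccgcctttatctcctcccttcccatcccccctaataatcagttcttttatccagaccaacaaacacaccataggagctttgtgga
Dkk1: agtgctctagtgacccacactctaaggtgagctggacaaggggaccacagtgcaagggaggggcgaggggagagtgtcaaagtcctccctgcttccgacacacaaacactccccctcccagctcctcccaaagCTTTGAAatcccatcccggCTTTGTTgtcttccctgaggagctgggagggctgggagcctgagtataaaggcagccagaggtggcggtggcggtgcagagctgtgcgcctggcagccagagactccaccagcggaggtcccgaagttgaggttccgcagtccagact
Axin2: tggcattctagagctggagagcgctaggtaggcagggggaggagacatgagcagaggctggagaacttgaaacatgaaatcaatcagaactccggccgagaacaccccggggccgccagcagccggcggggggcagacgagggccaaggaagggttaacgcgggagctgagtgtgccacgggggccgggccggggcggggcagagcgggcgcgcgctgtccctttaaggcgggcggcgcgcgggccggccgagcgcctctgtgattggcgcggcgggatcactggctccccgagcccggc
In the Sp5 window CTTTGAT began at position -104 from the start site, and CTTTGTT lay on the opposite strand at position -222. In the Dkk1 window CTTTGAA began at -117 and CTTTGTT at -98. A further match, CTTTGTT at position -14, stood in the second of the Tcf7l2 windows. In the windows of Axin2, Tcf7, Tcf7l1, Ctnnb1 and Nkd1 these letters were not found, which says nothing of sites elsewhere.

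Total counts ranged from 3466436 to 23872837 per library. Levels are given as CPM, the counts scaled to one common library total after each total was multiplied by its TMM factor, and the level of 3 counts, taken as the smallest detectable, lay between 0.116 and 0.984 CPM. That limit and the intervals of ratios of pooled counts cover counting error only, whereas the intervals of log2 fold changes come from edgeR and include the spread between replicates. The shallowest library, wt 0 h replicate 1, was the highest of its group for 9 of the 10 genes, so each result whose call rests on it is given with and without it. The pluripotency markers Pou5f1, Sox2, Sall4 and Lin28a summed to 898 to 2499 CPM in all libraries. At 0 h their sum was 1723 to 2499 CPM in wt libraries, 1583 to 1855 in KO#1 and 898 to 1068 in those labelled KO#2. Hmga2 ran between 13.3 and 22.4 CPM in wt libraries at 0 h, 1.75 and 10.2 in KO#1, and 1.84 and 8.25 in those labelled KO#2. At 24 h it stood at 5.51 to 5.93 in wt libraries, 0.871 to 3.67 in KO#1 and 3.02 to 10.5 in those labelled KO#2. The last range overlaps that of wt cells only through replicate 1, at 10.5 CPM, since replicates 2 and 3, at 3.02 and 3.48, lay below every wt library. At 0 h every library with that label lay below every wt library. Values of these libraries are given as those of the libraries labelled KO#2, or under the label KO#2, and every direction drawn from them rests on that label. Protein-coding genes took 76.3% to 79.1% of the counts in the libraries labelled KO#2 at 0 h, 52.6% to 66.7% in wt and 62.0% to 77.4% in KO#1, and at 24 h the shares were 82.3% to 84.7%, 41.6% to 63.4% and 41.3% to 63.1%.

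The first comparison asks how the genes changed over 24 h without the inhibitors. In wt cells 7 of the 10 genes changed. Sp5 is 1 of them, and its fall is a description only, since it passed the filter through 0 h libraries alone. Tcf7l1, Tcf7l2, Axin2, Sp5, Cdx1 and Notum fell and Ctnnb1 rose, whereas 24.7% of the 16619 genes tested fell, 26.0% rose and 50.7% changed in all (edgeR's quasi-likelihood test, adjusted p under 0.05 after Benjamini-Hochberg adjustment over all genes tested). The median log2 fold change of the 10 genes, here and below with Sp5 and Dkk1 included, was -1.31, against 0.03 over all genes tested. In KO#1, 4 genes changed, all of them downward (Tcf7, Tcf7l1, Tcf7l2 and Cdx1), against 20.6% of all genes that fell, 20.1% that rose and 40.8% called. Under the label KO#2, 2 genes changed, Cdx1 downward and Axin2 upward, against 13.3% of all genes that fell, 12.7% that rose and 26.0% called. The medians of the 10 genes were -1.22 in KO#1 and -0.35 under the label KO#2. Without wt 0 h replicate 1, 5 genes were called in wt cells. With library sizes alone the 4 falls in KO#1 were larger (Tcf7 -1.74, Tcf7l1 -3.56, Tcf7l2 -3.61 and Cdx1 -3.06) and the median of all genes there was -0.78. The count in KO#1 moved to 2 without 0 h replicate 1 and to 6 without 0 h replicate 3. The count for the libraries labelled KO#2 moved to 1 without 0 h replicate 1 or 0 h replicate 2, and to 3 without 24 h replicate 1. As these are bulk samples, fewer cells of a type and less RNA per cell cannot be told apart. Over the same time all 4 EpiLC markers (Fgf5, Otx2, Pou3f1 and Dnmt3b) rose and 4 of the 5 naïve markers fell in each line. Of the 8 fibroblast markers of the feeders 6 fell and 1 rose in wt cells, 6 fell and 1 rose in KO#1, and 3 fell and none rose under the label KO#2. Of the endoderm and mesendoderm markers, named below, 4 and 2 could be tested. The endoderm markers gave 2 falls in wt cells, 1 fall in KO#1 and 3 rises under the label KO#2. The mesendoderm markers gave 2 falls in wt cells, 1 fall in KO#1, and 1 fall and 1 rise under the label KO#2. The part of all these markers in the changes was not tested.

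**Figure D1:**
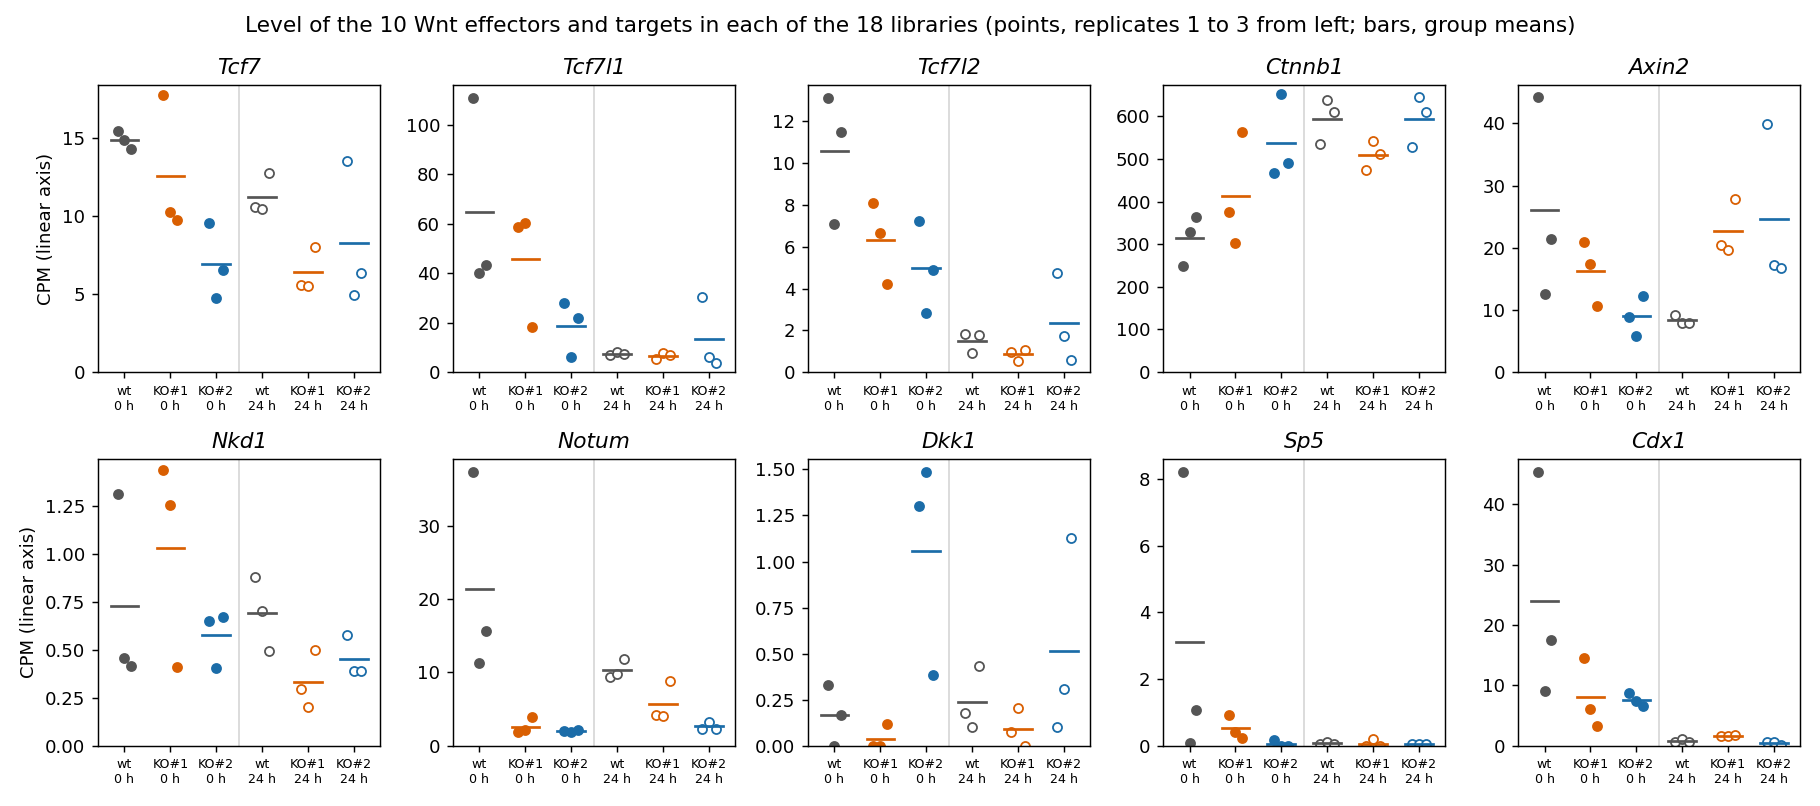
Level of each gene in CPM (linear axes, a scale of its own in each panel) in the 18 libraries, with points for replicates 1 to 3 from left to right and bars for the group means. Axin2 lay between 7.81 and 9.21 CPM in wt libraries at 24 h, below every library of both KO lines at that time, and Notum lay at 3.91 CPM or less in all KO libraries at 0 h and at 11.3 CPM or more in all wt libraries at that time.

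Tcf7l1, the Tcf factor most studied as a repressor in naïve cells, fell in wt cells and in KO#1. At 0 h its level was 111, 40.2 and 43.3 CPM in wt libraries, 58.5, 60.1 and 18 in KO#1, and 28.1, 6.12 and 21.9 in those labelled KO#2. At 24 h it was 6.92, 7.91 and 7.47 CPM in wt libraries, 5.44, 7.56 and 6.91 in KO#1, and 30.2, 6.08 and 3.48 in those labelled KO#2. The 0 h and 24 h ranges were apart in wt cells and in KO#1, while under the label KO#2 they overlapped, with 24 h replicate 1 above all of its 0 h libraries. Tcf7l1 had log2 fold changes of -3.11 (SE 0.70, adjusted p = 0.00160) in wt cells and -2.77 (SE 0.70, adjusted p = 0.00487) in KO#1. Under the label KO#2 the log2 fold change was -0.50 (95% interval -1.86 to 0.85, adjusted p = 0.610), and without 24 h replicate 1 it was -1.96 (adjusted p = 0.0244). Left out in turn, no library took the calls in wt cells or KO#1.

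Tcf7l2, another Tcf factor, which can activate or repress with β-catenin present or absent, followed the same order of groups. It measured 13.1, 7.07 and 11.5 CPM in wt libraries at 0 h, 8.08, 6.68 and 4.20 in KO#1 and 7.23, 2.83 and 4.89 in those labelled KO#2. At 24 h the values were 1.82, 0.902 and 1.79 CPM in wt libraries, 0.955, 0.511 and 1.06 in KO#1 and 4.76, 1.74 and 0.565 in those labelled KO#2. Every 24 h library of wt cells and KO#1 lay below all of its 0 h libraries, and the ranges of the libraries labelled KO#2 overlapped. Tcf7l2 had log2 fold changes of -2.76 (SE 0.58, adjusted p = 0.000910) in wt cells and -2.85 (SE 0.61, adjusted p = 0.00164) in KO#1, and left out in turn, no library took these calls. For Tcf7l2 under the label KO#2 the change was -1.10 (interval -2.22 to 0.03, adjusted p = 0.143), and -2.09 without 24 h replicate 1 (adjusted p = 0.00912).

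Tcf7, the Tcf factor also known as TCF1 and mostly an activator, changed little by comparison. Its levels were 15.4, 14.9 and 14.3 CPM in wt libraries at 0 h and 10.6, 10.4 and 12.7 at 24 h. In KO#1 they were 17.7, 10.2 and 9.75 CPM and then 5.59, 5.52 and 8.03. The values under the label KO#2 were 9.55, 4.72 and 6.52 CPM and then 13.5, 4.91 and 6.34. The 2 times did not overlap in wt cells and KO#1 and overlapped under the label KO#2. Only KO#1 passed the test for Tcf7, with a log2 fold change of -0.97 (SE 0.36, adjusted p = 0.0377). That call was lost without KO#1 0 h replicate 1 (-0.64, adjusted p = 0.219), 24 h replicate 1 (-0.89, adjusted p = 0.106) or 24 h replicate 2 (-0.89, adjusted p = 0.105), and with only the groups compared (-0.96, adjusted p = 0.0522). In wt cells the change of Tcf7 was -0.40 (interval -1.14 to 0.34, adjusted p = 0.357).

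Set side by side per length, the Tcf/Lef genes changed their order. In CPM per kb of exon, Tcf7l1 stood at 16.5 ± 10.2 (SD, n = 3) in wt libraries at 0 h, Tcf7 at 5.66 ± 0.22, Tcf7l2 at 1.2 ± 0.36 and Lef1, the fourth member of the family, at 0.95 ± 0.61. At 24 h in wt libraries Lef1 stood at 9.73 ± 2.39, Tcf7 at 4.28 ± 0.49, Tcf7l1 at 1.90 ± 0.13 and Tcf7l2 at 0.17 ± 0.06. Tcf7l1 lay above the other 3 in every wt library at 0 h and Lef1 did so in every wt library at 24 h. In KO#1 at 24 h Lef1 reached 1.86 ± 1.18, and its libraries overlapped those of Tcf7 at 2.43 ± 0.54 and of Tcf7l1 at 1.69 ± 0.28. The libraries labelled KO#2 gave 7.16 ± 5.42 for Lef1, 3.14 ± 1.75 for Tcf7 and 3.38 ± 3.76 for Tcf7l1 at 24 h, with overlapping ranges. Within each of these libraries, though, Lef1 lay above the other 3. Lef1 rose in all 3 lines, by log2 fold changes of 3.47 (SE 0.65) in wt cells, 2.44 (SE 0.66) in KO#1 and 4.92 (SE 0.68) under the label KO#2 (adjusted p = 0.000335, 0.00723 and 6.7e-05). At 24 h Lef1 was lower in KO#1, at 6.47 to 27.2 CPM against 73.1 to 110 in wt libraries (log2 fold change -2.38, SE 0.60, adjusted p = 0.0144).

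**Figure D2:**
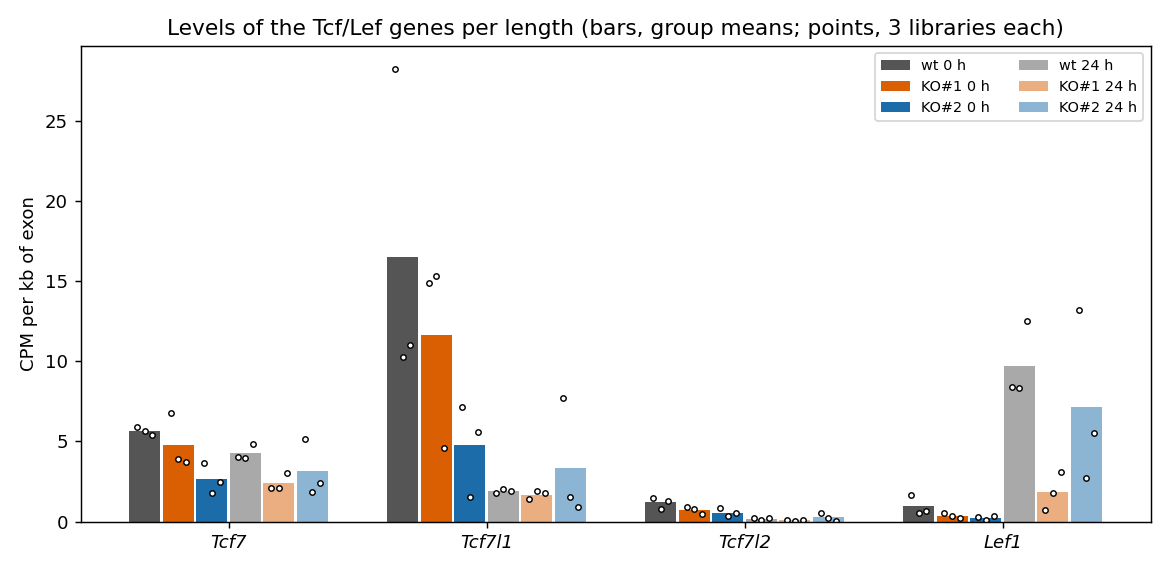
Levels of Tcf7, Tcf7l1, Tcf7l2 and Lef1 in CPM per kb of exon in the 6 groups, with bars for group means and points for the 3 libraries of each. Tcf7l1 had the highest bar in wt cells at 0 h (16.5) and Lef1 at 24 h (9.73).

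Ctnnb1, which encodes β-catenin itself, was the highest of the 10 genes per kb of exon in the mean of every group. It lay at 250, 329 and 364 CPM in wt libraries at 0 h and at 535, 637 and 609 at 24 h. In KO#1 it lay at 375, 303 and 563 CPM and then at 475, 542 and 511. Libraries with the label KO#2 lay at 468, 653 and 489 CPM and then at 528, 644 and 610. The 2 times were apart in wt cells and overlapped in both KO lines. Ctnnb1 rose by 0.92 on the log2 scale in wt cells (SE 0.25, adjusted p = 0.00603), and scaled by library size only, without TMM factors, the change was 0.27 (adjusted p = 0.542). In KO#1 it was 0.30 (interval -0.22 to 0.83, adjusted p = 0.347), which turned to -0.52 with library sizes alone, and under the label KO#2 it was 0.15 (interval -0.38 to 0.67, adjusted p = 0.713).

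Axin2 encodes a scaffold of the β-catenin destruction complex and is the standard feedback target of Wnt signalling. Its levels at 0 h were 44.3, 12.5 and 21.4 CPM in wt libraries, 21, 17.3 and 10.7 in KO#1, and 8.82, 5.76 and 12.3 in those labelled KO#2. At 24 h they were 9.21, 7.81 and 7.91 CPM in wt libraries, 20.5, 19.6 and 27.9 in KO#1, and 39.9, 17.3 and 16.7 in those labelled KO#2. All 24 h libraries lay below all 0 h libraries in wt cells, above them in the line labelled KO#2, and overlapped them in KO#1. In wt cells Axin2 fell by 1.61 (SE 0.43, adjusted p = 0.00506) and no library left out took that call (-1.95 to -1.06). In KO#1 the change was 0.49 (interval -0.39 to 1.36, adjusted p = 0.364), with the sign turned to -0.28 by library sizes alone. Under the KO#2 label it was 1.46 (SE 0.42, adjusted p = 0.0156). This rise lost its call without 0 h replicate 1 (1.45, adjusted p = 0.0557), 0 h replicate 2 (1.22, adjusted p = 0.0658) or 24 h replicate 1 (0.93, adjusted p = 0.102).

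Notum encodes a secreted enzyme that inactivates Wnt proteins by removing their lipid. Its levels in wt libraries were 37.4, 11.3 and 15.7 CPM at 0 h and 9.33, 9.82 and 11.9 at 24 h. In KO#1 they were 1.82, 2.09 and 3.91 CPM and then 4.26, 4.09 and 8.77. Those under the label KO#2 were 1.95, 1.93 and 2.21 CPM and then 2.30, 3.25 and 2.35. Times overlapped in wt cells, and in each KO line every 24 h library lay above every 0 h library. The fall in wt cells was a log2 fold change of -1.02 (SE 0.40, adjusted p = 0.0408), and it was not called without 0 h replicate 1 (-0.41, adjusted p = 0.370), 24 h replicate 1 (-0.96, adjusted p = 0.108) or 24 h replicate 2 (-1.01, adjusted p = 0.0935). For Notum in KO#1 the value was 1.07 (SE 0.43, adjusted p = 0.0522), just outside the threshold, and it was called by DESeq2 (1.10, adjusted p = 0.0366), with RLE factors (1.09, adjusted p = 0.0490), with no filter (1.09, adjusted p = 0.0248), with protein-coding genes alone (1.07, adjusted p = 0.0469) and without KO#1 0 h replicate 3 (1.57, adjusted p = 0.0205). Notum under the label KO#2 gave 0.38 (interval -0.49 to 1.24, adjusted p = 0.542).

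Cdx1, a homeobox factor of the posterior body axis, fell in all 3 lines. It measured 45.3, 9.09 and 17.5 CPM in wt libraries at 0 h and 0.645, 1.10 and 0.679 at 24 h. The KO#1 values were 14.6, 6.06 and 3.33 CPM and then 1.62, 1.64 and 1.74. The values under the label KO#2 were 8.70, 7.42 and 6.62 CPM and then 0.575, 0.619 and 0.174. In each line the times were apart, with every 24 h library at 1.74 CPM or less. Log2 fold changes of Cdx1 were -4.88 (SE 0.63, adjusted p = 1.24e-05) in wt cells, -2.24 (SE 0.57, adjusted p = 0.00512) in KO#1 and -4.03 (SE 0.61, adjusted p = 0.000152) under the label KO#2. The KO#1 call was lost without 0 h replicate 1 (-1.43, adjusted p = 0.0642), and the other calls of Cdx1 held whichever library was left out, with -4.10 in wt cells without 0 h replicate 1.

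Sp5, a zinc finger repressor that is a direct Wnt target, was near the limit of detection in most libraries, so its counts are given. They were 25, 1 and 13 in wt libraries at 0 h and 1, 1 and 1 at 24 h. In KO#1 the counts were 7, 2 and 4 and then 0, 2 and 0, and under the label KO#2 they were 4, 0 and 0 and then 1, 1 and 1. Most of the Sp5 signal came from wt 0 h replicates 1 and 3, and wt 0 h replicate 2, at 0.0918 CPM, was within the 24 h range of 0.0587 to 0.100. The pooled counts, 39 against 3, gave a ratio of 0 h to 24 h of 21.7 in wt cells (95% counting interval 6.89 to 110). Sp5 passed the test in wt cells (adjusted p = 0.00404), but not without wt 0 h replicate 1 (adjusted p = 0.0535), which leaves 14 counts and a ratio of 8.81 (2.46 to 47.8). The KO#1 counts of 13 and 2 gave a ratio of 8.67 (1.96 to 79.1) and an adjusted p of 0.126, or 0.0253 with library sizes alone and 0.0350 with no filter.

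Nkd1, an inhibitor that binds Dishevelled inside the cell, and Dkk1, a secreted blocker of the Wnt co-receptors, passed the test in no line over the 24 h. Nkd1 was at 0.204 to 1.43 CPM in all 18 libraries, with 2 to 16 counts. Its log2 fold changes were 0.20 in wt cells (interval -1.05 to 1.45, adjusted p = 0.802), with the sign turned to -0.44 by library sizes alone, -1.46 in KO#1 (interval -2.72 to -0.20, adjusted p = 0.0594) and -0.36 under the label KO#2 (interval -1.46 to 0.74, adjusted p = 0.660). Nkd1 in KO#1 was called without 0 h replicate 3 (-1.94, adjusted p = 0.0151) or 24 h replicate 3 (-1.90, adjusted p = 0.0460), and with library sizes alone (-2.20, adjusted p = 0.00978). The Dkk1 counts were 1, 0 and 2 in wt libraries at 0 h and 3, 1 and 7 at 24 h. They were 0, 0 and 2 and then 1, 2 and 0 in KO#1, and 32, 33 and 8 and then 2, 8 and 26 under the label KO#2. Only the libraries labelled KO#2 held more than 7 counts of Dkk1.

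**Figure D3:**
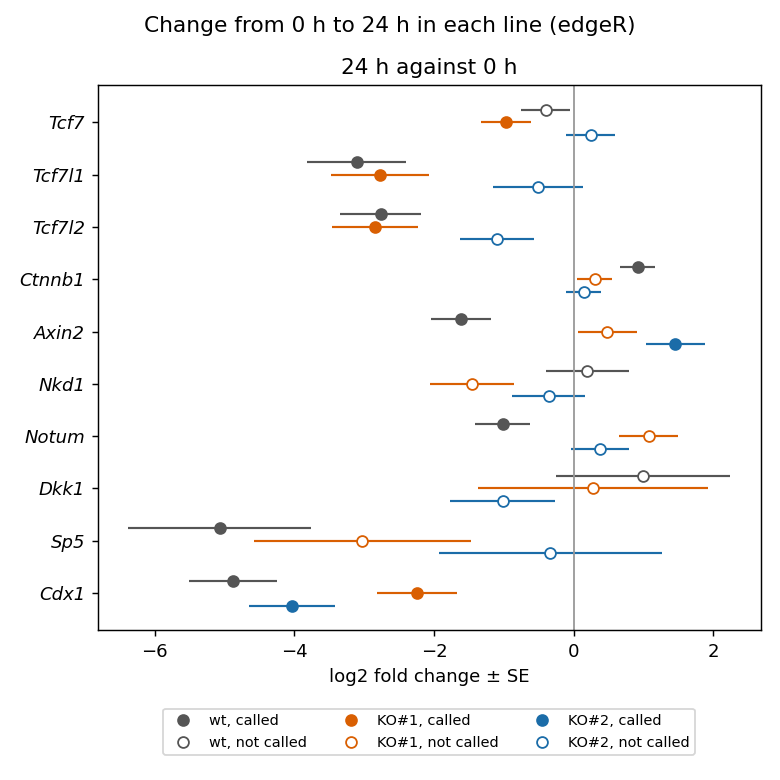
Log2 fold change from 0 h to 24 h of each gene in the 3 lines (x axis, bars ± SE, edgeR), with filled points for changes that passed the test. Axin2 lies at -1.61 in wt cells, 0.49 in KO#1 and 1.46 under the label KO#2, while Cdx1 lies left of 0 in all 3; the fitted values of Sp5 and Dkk1 rest on few counts, given in the text.

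The next comparison asks how the lines differed in the presence of the inhibitors. At 0 h, 1 of the 10 genes, Notum, was lower in KO#1 than in wt cells and none was higher, where 2.68% of all genes tested were lower, 3.99% higher and 6.67% called. Under the label KO#2, 8 genes differed from wt cells, Tcf7, Tcf7l1, Axin2, Sp5, Cdx1 and Notum being lower and Ctnnb1 and Dkk1 higher, of which Sp5 and Dkk1 passed the filter only through the libraries where they were high, where 16.6% of all genes were lower, 21.5% higher and 38.1% called. The medians of the 10 genes were -0.69 in KO#1 and -1.30 under the label KO#2, against 0.02 and 0.10 over all genes. Both comparisons share the wt libraries, and the 8 genes became 4 without wt 0 h replicate 1, 2 without KO#2 0 h replicate 2 and 4 with library sizes alone. Of the 4 pluripotency markers 3 were lower under the label KO#2 at 0 h and none was higher. Of the 5 naïve markers 2 were lower and 1 was higher. Of the mesendoderm markers, named below, 2 could be tested and 1 was lower, with Eomes at 3.04 ± 0.89 CPM (SD, n = 3) against 11.4 ± 4.34 in wt libraries. Of the 4 EpiLC markers, and of the 4 endoderm markers tested, 1 was higher and 1 lower. The parts of these markers and of the higher share of protein-coding counts, given above, were not tested.

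Notum was lower in KO#1 by a log2 fold change of -2.94 (SE 0.44, adjusted p = 0.000321), and under the label KO#2 by -3.36 (SE 0.44, adjusted p = 4.14e-05). No KO library at 0 h reached the lowest wt library. Without wt 0 h replicate 1 the calls stayed, and over all libraries left out the values of Notum lay between -3.42 and -2.29 in KO#1, and between -3.67 and -2.75 under the label KO#2. Notum (chromosome 11, 120653788 to 120661175, minus strand, in the GENCODE M21 annotation of GRCm38) overlaps the genes Notumos and Myadml2os on the opposite strand, and since the use of strand in the counting is not given in the sources used here, reads of these genes cannot be told apart from its own.

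Axin2 was lower under the label KO#2, by a log2 fold change of -1.51 (SE 0.43, adjusted p = 0.0115), and the difference was -0.95 (adjusted p = 0.0779) without wt 0 h replicate 1, -1.26 (adjusted p = 0.0514) without KO#2 0 h replicate 2, and -0.98 (adjusted p = 0.0892) with library sizes alone. Its ranges, given above, did not overlap, though the lowest wt library at 12.5 CPM and the highest labelled KO#2 at 12.3 nearly met. In KO#1 the difference was -0.65 (SE 0.42) and not called. Axin2 (chromosome 11, 108920349 to 108950783, plus strand) shares its locus with Gm11670 on the other strand, and Tcf7, Tcf7l1, Tcf7l2, Ctnnb1 and Nkd1 also overlap other annotated genes, while Sp5, Cdx1 and Dkk1 do not.

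Among the Tcf factors, Tcf7 was lower under the label KO#2 by -1.09 (SE 0.35, adjusted p = 0.0230), and Tcf7l1 by -1.77 (SE 0.66, adjusted p = 0.0424). All their 0 h libraries under that label lay below all wt libraries for both genes. The Tcf7 call was lost without KO#2 0 h replicate 2 (-0.88, adjusted p = 0.0944) or replicate 3 (-1.05, adjusted p = 0.0639), and with library sizes alone (-0.63, adjusted p = 0.274). For Tcf7l1 it was lost without wt 0 h replicate 1 (-1.19, adjusted p = 0.187), wt replicate 3 (-1.99, adjusted p = 0.0506), KO#2 replicate 2 (-1.35, adjusted p = 0.140) or KO#2 replicate 3 (-1.90, adjusted p = 0.0749), with library sizes alone (-1.23, adjusted p = 0.119) and with at least 10 counts in every library (-1.59, adjusted p = 0.0719). Tcf7l2 was at -1.06 (interval -2.18 to 0.06, adjusted p = 0.120). In KO#1 Tcf7 was at -0.24 (interval -0.98 to 0.51), Tcf7l2 at -0.74 (interval -1.88 to 0.40) and neither was called.

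Cdx1 was lower under the label KO#2, at -1.62 (SE 0.52, adjusted p = 0.0218), and every one of them lay below every wt library. That call was lost without wt 0 h replicate 1 (-0.84, adjusted p = 0.194), KO#2 replicate 2 (-1.60, adjusted p = 0.0570) or KO#2 replicate 3 (-1.53, adjusted p = 0.0655), and with library sizes alone (-1.08, adjusted p = 0.0975). In KO#1 Cdx1 was at -1.56 (SE 0.53, adjusted p = 0.0917), which was called by DESeq2 (-1.61, adjusted p = 0.0452), with no filter (-1.54, adjusted p = 0.00214), without KO#1 0 h replicate 1 (-2.36, adjusted p = 0.0212) and without wt 0 h replicate 2 (-1.96, adjusted p = 0.0366). Sp5 was also lower under the label KO#2 (adjusted p = 0.00386), with 39 counts in wt libraries and 4 in those, a ratio of 25.5 (9.18 to 98.1), although wt replicate 2 overlapped them. Without wt 0 h replicate 1 this Sp5 ratio was 10.4 (3.25 to 43.2, adjusted p = 0.0431). The ratio of wt cells to KO#1, with 13 counts of Sp5, was 3.42 (1.79 to 6.99), or 1.39 (0.607 to 3.22) without wt 0 h replicate 1, and the adjusted p was 0.232.

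Ctnnb1 was higher under the label KO#2, by 0.77 (SE 0.25, adjusted p = 0.0236), without overlap, and that call was lost without wt 0 h replicate 1 (0.61, adjusted p = 0.118) or KO#2 0 h replicate 2 (0.61, adjusted p = 0.102), with no filter on low counts (0.81, adjusted p = 0.0556) and with only the groups compared (0.79, adjusted p = 0.0535). In KO#1 Ctnnb1 was at 0.39 (interval -0.13 to 0.92).

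Dkk1 passed the filter through 3 libraries with this label, 2 at 0 h and 1 at 24 h, so its difference is given as a description. It was higher under the label KO#2 than in wt cells, with 73 counts against 3, a ratio of 9.32 (counting interval 3.07 to 46.2, adjusted p = 0.0343). Against KO#1, with 2 counts, the ratio was 16.0 (4.26 to 134, adjusted p = 0.0191). Its lowest library under that label, at 0.384 CPM, stood just above the highest wt library at 0.328, which was 1 count. The call against wt cells was lost without wt 0 h replicate 2 (adjusted p = 0.138), wt replicate 3 (adjusted p = 0.0864), KO#2 replicate 1 (adjusted p = 0.0765) or KO#2 replicate 2 (adjusted p = 0.0862). The call against KO#1 was lost without KO#1 replicate 1 (adjusted p = 0.0594), KO#1 replicate 2 (adjusted p = 0.0536) or KO#2 replicate 1 (adjusted p = 0.0519). Of the 8 fibroblast markers that mark the feeders (Acta2, Thy1, Lox, Dcn, Postn and the collagens Col1a1, Col1a2 and Col3a1), 4 were also higher in these libraries, and their sum was 331 to 898 CPM against 110 to 390 in wt libraries and 183 to 514 in KO#1. Dcn had 0 counts in wt libraries at 0 h. Replicate 3 of the label KO#2 had the highest fibroblast sum and the lowest Dkk1 of its group. The part of the feeders in the differences at 0 h, that of Dkk1 included, was not tested.

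At 24 h, without the inhibitors, Axin2 was the gene of the 10 that passed the test in both KO lines. Both comparisons use the same wt libraries, and the share of all genes that passed in both was not counted. The numbers of the 10 genes called were near or under the shares of all genes called. In KO#1, 1 of the 10 genes, Axin2, was higher than in wt cells and none was lower, where 6.25% of all genes were higher, 3.61% lower and 9.86% called. Under the label KO#2, Axin2 was higher and Notum lower, where 21.3% of all genes were higher, 16.0% lower and 37.3% called. The medians of the 10 genes were -0.59 and -0.23, and those of all genes -0.02 and 0.20.

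Axin2 was higher by 1.45 (SE 0.42, adjusted p = 0.0357) in KO#1 and by 1.56 (SE 0.42, adjusted p = 0.00809) under the label KO#2, and in both lines the lowest library, at 19.6 and 16.7 CPM, lay above the highest wt library at 9.21. The KO#1 call was lost without wt 24 h replicate 1 (1.54, adjusted p = 0.0798), wt replicate 2 (1.43, adjusted p = 0.103), wt replicate 3 (1.46, adjusted p = 0.0859) or KO#1 replicate 3 (1.30, adjusted p = 0.0945), with the size of the difference little moved. The other call was lost without KO#2 24 h replicate 1 (1.03, adjusted p = 0.0683). With protein-coding genes alone the values of Axin2 were 1.47 (adjusted p = 0.0267) and 1.64 (adjusted p = 0.00513), and with library sizes alone 1.45 (adjusted p = 0.0480) and 2.62 (adjusted p = 6.52e-05), where the median of all genes moved from 0.20 to 1.24 under the label KO#2.

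Marker genes of other states also differed between the lines at 24 h. The mesendoderm markers T, Mixl1, Eomes and Gsc summed to 1.98 to 2.11 CPM in wt libraries, 5.73 to 11.8 in KO#1 and 7.73 to 11.9 in those labelled KO#2. Of these 4, 2 were abundant enough to test and 1 was higher in each KO line. Almost all of that sum was Eomes, an activator of early mesendoderm, at 1.75 ± 0.11 CPM (SD, n = 3) in wt libraries, 8.43 ± 3.24 in KO#1 and 9.62 ± 1.99 in those labelled KO#2, while T had 0 to 9 counts, Mixl1 0 to 2 and Gsc 0 to 5 in any library at 24 h. At 0 h Eomes had been at 11.4 ± 4.34 CPM in wt libraries, 6.73 ± 0.19 in KO#1 and 3.04 ± 0.89 in those labelled KO#2. The 24 h level in the KO lines was thus not above that of wt cells at 0 h in the mean. The naïve markers Nanog, Klf4, Zfp42, Esrrb and Tfcp2l1 summed to 149 to 171 CPM in wt libraries, 320 to 453 in KO#1 and 187 to 475 in those labelled KO#2, with 3 and 4 of the 5 higher. Of the 4 EpiLC markers 1 was lower in each KO line and none was higher, and their sums overlapped, at 731 to 1393 CPM in wt libraries, 406 to 909 in KO#1 and 351 to 761 in those labelled KO#2. The lower one was Pou3f1, at 145 ± 34.3 CPM (SD, n = 3) in wt libraries, 30.5 ± 7.74 in KO#1 and 30.2 ± 15.8 in those labelled KO#2, while Otx2 was at 42.9 ± 13.7, 75.3 ± 20.4 and 51.6 ± 14.8. The endoderm markers Gata6, Gata4, Sox17, Sox7 and Foxa2 summed to 0.865 to 1.53 CPM in wt libraries, 1.74 to 4.56 in KO#1 and 7.58 to 13.8 in those labelled KO#2, and the fibroblast markers to 19.0 to 34.6, 38.7 to 51.8 and 71.0 to 219. Of the 4 endoderm markers tested 1 was higher in KO#1 and 4 under the label KO#2. Of the 8 fibroblast markers 1 was higher and 1 lower in KO#1, and 6 were higher under the label KO#2. Dcn was at 5.80 ± 2.20 CPM in wt libraries and 1.34 ± 1.27 in KO#1. The part of these markers in the Axin2 difference was not tested.

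Notum was lower at 24 h under the label KO#2, by -1.97 (SE 0.41, adjusted p = 0.00135), with no overlap, and no library left out took that call, while library sizes alone did (-0.93, adjusted p = 0.0788). In KO#1 Notum was at -0.85 (SE 0.40, adjusted p = 0.218), though its highest library at 8.77 CPM lay below the lowest wt library at 9.33. Tcf7 in KO#1 was at -0.81 (SE 0.35, adjusted p = 0.175, called with only the groups compared at -0.79 and 0.0459), again without overlap, and under the label KO#2 at -0.45 (interval -1.18 to 0.28), where the sign turned to 0.58 with library sizes alone. Without KO#2 24 h replicate 1, the highest of its group for 6 of the 10 genes, Tcf7 was called there (-0.99, adjusted p = 0.0366).

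The remaining genes did not pass the test against wt cells at 24 h. Ctnnb1 was at -0.22 in KO#1 (interval -0.75 to 0.30) and within 0.52 either way under the label KO#2 (interval -0.52 to 0.52), on the log2 scale. Tcf7l1 was at 0.83 (interval -0.56 to 2.22) and Tcf7l2 at 0.60 (interval -0.59 to 1.79) under the label KO#2, whose replicate 1 lay above replicates 2 and 3 for both. Ordered by group mean, no neighbouring groups were apart for Axin2, the 3 Tcf genes, Ctnnb1, Nkd1 or Dkk1. The ranges of Cdx1 at 24 h were apart, but it was not called against wt cells in KO#1 (1.08, adjusted p = 0.350) or under the label KO#2 (-0.78, adjusted p = 0.380). Its lowest wt library, at 0.645 CPM, and the highest labelled KO#2, at 0.619, nearly met, on 4 to 16 counts a library. Those of Notum at 24 h were also apart, in the order wt, KO#1, libraries labelled KO#2. How often the ranges of all genes were apart was not counted, so these ranges are descriptions only.

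**Figure D4:**
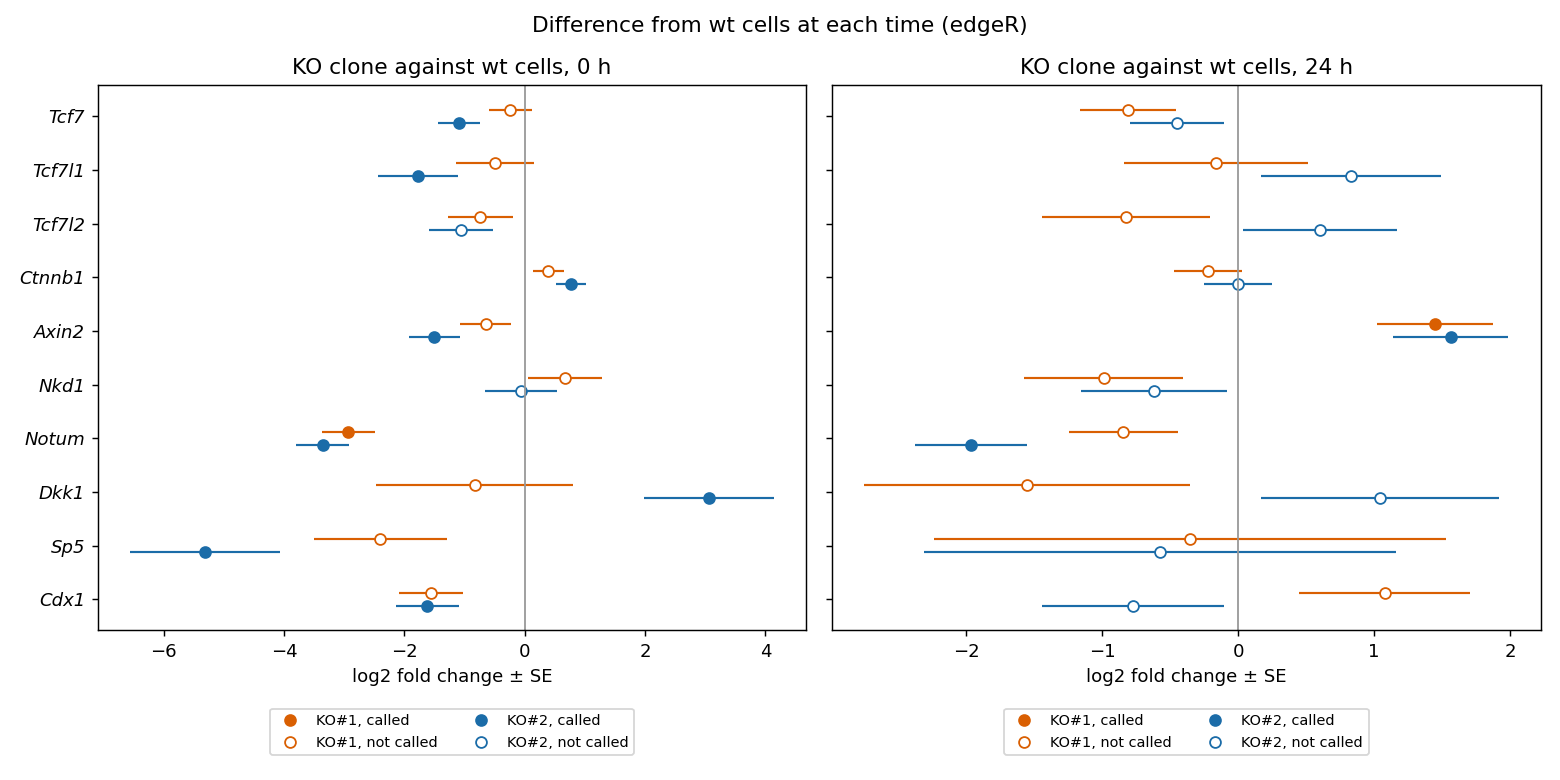
Log2 fold change of each gene in KO#1 and under the label KO#2 against wt cells at 0 h (left) and 24 h (right), with bars of ± SE and filled points for differences that passed the test; the x axes differ in range, and Sp5 and Dkk1 rest on few counts. Axin2 lies left of 0 at 0 h (-0.65 and -1.51) and right of it at 24 h (1.45 and 1.56), and Notum lies left of 0 in all 4.

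The KO lines were also set against each other. At 0 h, 1 of the 10 genes, Dkk1, was higher under the label KO#2 than in KO#1, which passed the filter only through libraries labelled KO#2, and none was lower, where 15.1% of all genes were higher, 11.3% lower and 26.4% called. At 24 h, 2 were lower, Cdx1 and Notum, and none was higher, where 16.1% of all genes were lower, 19.3% higher and 35.4% called. Cdx1 differed by -1.85 (SE 0.63, adjusted p = 0.0289), at 0.575, 0.619 and 0.174 CPM against 1.62, 1.64 and 1.74. Notum differed by -1.12 (SE 0.41, adjusted p = 0.0399), at 2.30, 3.25 and 2.35 CPM against 4.26, 4.09 and 8.77. The groups were apart for both genes. Leaving out 4 of the 6 libraries took the Cdx1 call (KO#1 replicate 2, adjusted p = 0.0510, KO#1 replicate 3, 0.0613, KO#2 replicate 1, 0.0508, and KO#2 replicate 3, 0.104). For Notum 3 did so (KO#1 replicate 3, -0.69 and adjusted p = 0.235, KO#2 replicate 1, -1.03 and 0.114, and KO#2 replicate 3, -1.04 and 0.102), as did protein-coding genes alone (-1.04, adjusted p = 0.0555) and at least 10 counts in every library (-0.99, adjusted p = 0.0523). With library sizes alone Cdx1 was at -0.77 and Notum at -0.13, neither called. Dkk1 (adjusted p = 0.0678) was called without KO#2 24 h replicate 1 (adjusted p = 0.0389), and Tcf7l2 (1.43, adjusted p = 0.0721) without KO#2 24 h replicate 3 (1.90, adjusted p = 0.0113) and by DESeq2 (1.44, adjusted p = 0.0449). Both were called with library sizes alone (adjusted p = 0.00381 for Dkk1 and 0.00186 for Tcf7l2) and with no filter (0.0289 and 0.0110).

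Whether the 24 h change itself differed between a KO line and wt cells was tested as an interaction term. Under the label KO#2, 1 of the 10 genes, Axin2, had a higher response and none a lower one, where 0.951% of all genes were higher, 0.517% lower and 1.47% called. The difference was 3.07 (SE 0.60, adjusted p = 0.0167), a log2 fold change of 1.46 against -1.61. It lost its call without KO#2 0 h replicate 2 (2.83, adjusted p = 0.0578) or wt 24 h replicate 2 (3.05, adjusted p = 0.0523), and without wt 0 h replicate 1 it was 2.51 (adjusted p = 0.0354). For KO#1, none of the 10 genes was called by edgeR, where 0.253% of all genes had a higher response, 0.138% a lower one and 0.391% were called. At an unadjusted p under 0.05 there were 3 of the 10, against 1679 of all 16619, and DESeq2 called 2, Axin2 and Notum, against 271 of the 16612 genes it tested. Axin2 differed by 2.10 (SE 0.60, adjusted p = 0.160, DESeq2 2.15 and 0.0412) and Notum by 2.09 (SE 0.58, adjusted p = 0.150, DESeq2 2.15 and 0.0333). Cdx1 differed by 2.64 (SE 0.82, adjusted p = 0.205), with log2 fold changes of -2.24 and -4.88. With no filter on low counts Axin2, Notum and Cdx1 were called (adjusted p = 0.00102, 0.0131 and 0.00225), against 307 of 29079 genes. Of the responses under the label KO#2, that of Tcf7l1 differed by 2.60 (SE 0.94, adjusted p = 0.125), Tcf7l2 by 1.66 (SE 0.78, adjusted p = 0.204), Ctnnb1 by -0.77 (SE 0.35, adjusted p = 0.198) and Notum by 1.39 (SE 0.57, adjusted p = 0.163). Without KO#2 24 h replicate 1 the values were 1.14 for Tcf7l1 (adjusted p = 0.464) and 0.67 for Tcf7l2 (adjusted p = 0.645). Tcf7l1 was called by DESeq2 (2.68), without a filter (2.59, adjusted p = 1.28e-06) and with library sizes alone (3.14, adjusted p = 0.0389). Among the markers, 1 of the 2 mesendoderm markers tested had a higher response in each KO line. Under the label KO#2, 1 of the 5 naïve markers also had a higher response and 1 of the 8 fibroblast markers a lower one. The part of these markers in the responses was not tested.

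The other genes of the pathway were taken from 9 lists of 97 genes, of which 79 could be tested. In wt cells 36 of the 79 fell over 24 h (45.6%, against 24.7% of all genes) and 14 rose (17.7%, against 26.0%). In KO#1 31 fell (39.2%, against 20.6% of all genes) and 14 rose (17.7%, against 20.1%). Under the label KO#2 17 fell (21.5%, against 13.3%) and 11 rose (13.9%, against 12.7%). These shares of all genes are the background of the counts of each list below. In each line the genes that fell include all 5 naïve pluripotency genes of the list repressed by Tcf7l1, given below. The medians of the 79 log2 fold changes were -0.59, -0.64 and -0.42, near 0 over all genes in each line. Against wt cells at 24 h, 22 of the 79 were higher and 3 lower under the label KO#2 (27.8% and 3.80%, against 21.3% and 16.0% of all genes), and in KO#1 7 were higher and 4 lower (8.86% and 5.06%, against 6.25% and 3.61%). At 0 h, 15 were higher and 19 lower under the label KO#2 (19.0% and 24.1%, against 21.5% and 16.6%), and 1 was higher and 3 lower in KO#1 (1.27% and 3.80%, against 3.99% and 2.68%).

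Of the 10 Wnt ligands tested 4 rose and 1 fell in wt cells. Wnt8a, a ligand of the early embryo, rose from 0.5 ± 0.425 to 5.03 ± 0.754 CPM (SD, n = 3; log2 fold change 3.72, SE 0.51, adjusted p = 2.27e-05) and also in both KO lines (2.13 and 4.52). Among the 15 receptors 6 fell and 2 rose. Fzd5 fell from 214 ± 51.0 to 18 ± 2.43 CPM (-3.57, SE 0.43), and Lrp5, a co-receptor, from 60.4 ± 22.1 to 7.87 ± 1.32 (-2.93, SE 0.51); Fzd5 fell in all 3 lines, and Lrp5 in wt cells and KO#1 (-2.12), with -1.02 and adjusted p = 0.127 under the label KO#2. Among the 7 inhibitors tested 4 fell and 1 rose, and Sfrp1, a secreted Wnt-binding protein, went from 245 ± 22.7 to 11.9 ± 2.59 CPM (-4.36, SE 0.31, adjusted p = 4.86e-08), with -4.66 in KO#1 and -3.41 under the label KO#2.

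In the cytoplasmic list 9 of 15 fell and 1 rose in wt cells. Gsk3b, the kinase that CHIR-99021 blocks, went from 59.7 ± 9.29 to 12.5 ± 2.85 CPM (-2.25, SE 0.39, adjusted p = 0.000162), and Axin1, the constitutive counterpart of Axin2, from 64.4 ± 22.2 to 26.6 ± 8.99 (-1.27, SE 0.33, adjusted p = 0.00439). At 24 h Gsk3b was higher under the label KO#2 than in wt cells (1.48, SE 0.38, adjusted p = 0.00527) and at 0.01 in KO#1. In the nuclear list 6 of 11 fell and 2 rose, Tle3, a co-repressor that Tcf factors recruit, going from 273 ± 86.0 to 28.9 ± 7.31 CPM (-3.23, SE 0.52) and Lef1 rising as given above. Of the R-spondin genes and their receptors and ligases 4 of 8 fell and 1 rose.

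Of 6 further targets tested 3 rose and none fell in each line, where 26.0%, 20.1% and 12.7% of all genes rose in wt cells, KO#1 and the line labelled KO#2. Myc, a growth regulator, rose from 5.98 ± 3.59 to 62.2 ± 5.19 CPM in wt cells (3.5, SE 0.43, adjusted p = 7.53e-06), with 4.48 in KO#1 and 3.95 under the label KO#2, and Ccnd1, a cell cycle gene, by 1.09, 1.25 and 1.95. Tnfrsf19, a receptor of the tumour necrosis factor family, was the gene of these lists whose response differed in KO#1 (1.66, SE 0.34, adjusted p = 0.0374), with 1.10 there against -0.56 in wt cells. All 5 genes known to be repressed by Tcf7l1 (Nanog, Esrrb, Klf2, Tfcp2l1 and Nr5a2), which are naïve pluripotency genes and share 3 members with the naïve markers, fell in each of the 3 lines, while Tcf7l1 itself fell in wt cells and KO#1. Among them Klf2 went from 239 ± 99.4 to 11.5 ± 2.26 CPM in wt cells, and its response differed under the label KO#2 (2.11, SE 0.51, adjusted p = 0.0447).

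**Figure D5:**
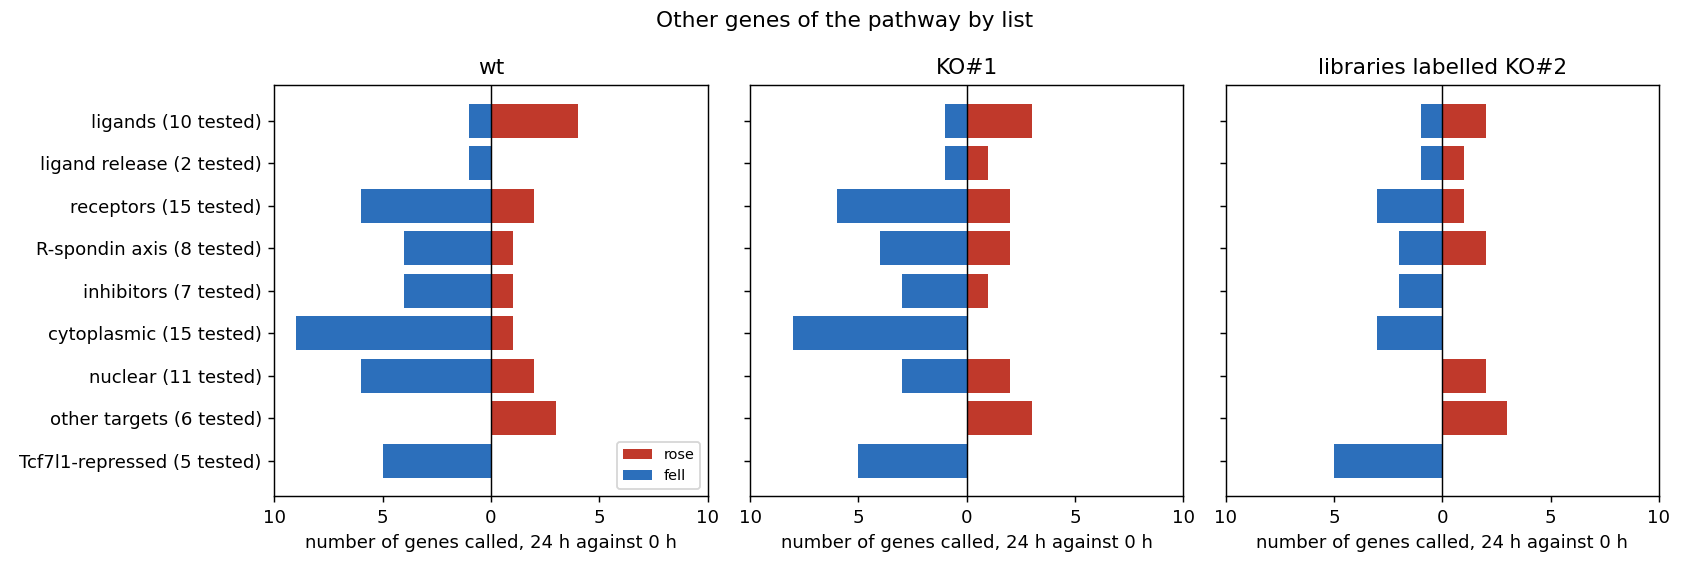
Number of genes of each of the 9 pathway lists that fell (left of 0) or rose (right of 0) from 0 h to 24 h in the 3 lines. Cytoplasmic genes, receptors and the genes repressed by Tcf7l1 fell more often than they rose in each line, with 9, 6 and 5 that fell in wt cells.

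The genes whose levels ran most like those of Axin2 across the 18 libraries were sought among 10138 genes of at least moderate level. They were Eomes (Pearson's r = 0.83 on log2 CPM), 4931428F04Rik (0.81), Ano8 (0.81), Gon4l (0.80) and Gm17296 (0.80). For Eomes the value was 0.83 over the 0 h libraries and 0.89 over those at 24 h. All 5 stayed the closest with a smaller prior count, 3 with ranks in place of levels, and none with the libraries of 1 time alone, and the 18 points share 3 lines, 2 times and the same scaling. Over all 18 libraries the other Wnt genes lay farther off, with Sp5 at 0.48, Tcf7l1 at 0.41, Tcf7 at 0.26 and Ctnnb1 at -0.51. Within the 0 h libraries Sp5 (0.92), Tcf7l1 (0.91) and Tcf7l2 (0.87) lay closer to Axin2 than Eomes did, and Ctnnb1 was at -0.87. Within the 24 h libraries these 4 were at -0.29, 0.43, 0.22 and -0.54. The values of Sp5 are descriptions only, as it passed the filter through 0 h libraries alone and held 0 to 25 counts there. No correlation was computed without wt 0 h replicate 1.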

How the data were processed

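Total RNA was sequenced in 18 libraries, 3 independent biological replicates in each of 6 groups, by the study's methods (stranded library kit, paired reads). The authors trimmed reads with Trim Galore, removed ribosomal RNA, aligned with STAR to GRCm38 and deposited raw counts per Ensembl gene. The annotation release and the use of strand in counting are not given in the sources used here. The 10 genes and the pathway and marker lists were chosen with earlier results of these data known.

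Counts were tested with edgeR 4.0.16 (quasi-likelihood test, TMM factors, R 4.3.3) in one model of the 6 groups, after filterByExpr with a minimum count of 10 left 16619 of 45706 genes. Benjamini-Hochberg adjustment ran over these genes, with a threshold of 0.05 and 95% intervals. Differences between 24 h responses were interaction terms. Levels are CPM on TMM-scaled totals, and log2 CPM used a prior count of 2. Depth ranged from 3466436 to 23872837 counts. Exon lengths come from GENCODE M21, promoter windows from RefSeq. Of 153 pairs of libraries, 0 held identical counts. The same fit was also run on simulated counts with known changes, and its outcome is not given here.

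Named genes are the 10 members, the 5 genes most like Axin2 and genes of the lists with a called response difference. From each list, up to 4 genes with the largest called change in wt cells over 24 h were taken. Only some of these are named above, not always those with the largest change. Same-numbered libraries deviated together in KO#1 and wt cells at 24 h (correlations 0.480, 0.223 and 0.587, each over 0.1), and a replicate block there left the count of called genes at 1. Alternatives were DESeq2 1.42.0, RLE factors, library sizes alone, other filters, protein-coding genes only, only the groups compared, adjusted p under 0.01, the block, and each library left out. Pathway lists were tested in the main setting only.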

Additional observations from a re-analysis of the deposited data

Results flagged for a closer look

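The 24 h response of Axin2 differed between the libraries labelled KO#2 and wt cells by 3.07 on the log2 scale (SE 0.60, adjusted p = 0.0167, edgeR, 3 libraries in each of 4 groups), with every wt library lower and every library labelled KO#2 higher at 24 h than at 0 h. The difference itself was tested, as an interaction term. Over the 21 alternatives it ran from 2.51 to 3.60, with adjusted p between 8.20e-09 and 0.0578, and it passed the threshold in all but 3 of them, namely without KO#2 0 h replicate 2 (2.83, adjusted p = 0.0578), without wt 24 h replicate 2 (3.05, adjusted p = 0.0523) and at an adjusted p under 0.01.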

How the results depend on the processing

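With at least 10 counts in every library, which drops the low genes, 4 were called over time in wt cells, 2 in KO#1 and 1 under the label KO#2 (below, KO#2), 4 in KO#2 against wt at 0 h, and 0 in KO#2 against KO#1 at 0 h and at 24 h. At an adjusted p under 0.01 the counts were 1 over time in KO#2, 2 in KO#2 against wt at 0 h, 0 in KO#1 against wt at 24 h, 0 in KO#2 against KO#1 at either time, and 0 for the KO#2 response. With no filter they were 2 in KO#1 against wt at 0 h, 3 and 5 in KO#2 against KO#1 at 0 h and 24 h, and 3 and 2 for the KO#1 and KO#2 responses. DESeq2 gave 2 in KO#1 against wt at 0 h and 2 for each response. With library sizes alone there were 4 in KO#2 against wt at 0 h (5508 of all 16619 genes), 5 at 24 h (10208), 6 in KO#2 against KO#1 at 24 h (9986) and 2 for the KO#2 response (801), while the median of all genes moved from 0.20 to 1.24 in KO#2 against wt at 24 h. With only the groups compared there were 5 in KO#2 against wt at 0 h, 2 in KO#1 against wt at 24 h and 0 in KO#2 against KO#1 at 0 h. Protein-coding genes alone gave 1 in KO#2 against KO#1 at 24 h. The replicate block gave 2 in KO#2 against KO#1 at 0 h, where Tcf7 was added (-0.86, adjusted p = 0.0483), and 1 at 24 h, where Notum was lost (-1.05, adjusted p = 0.0587). The block turned Sp5 over time in KO#2 to 0.056 and changed no other call. Library sizes alone turned Nkd1 in wt cells to -0.44, Axin2 and Ctnnb1 in KO#1 to -0.28 and -0.52 (all over time), and Tcf7 in KO#2 against wt at 24 h to 0.58.

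With each library left out, the counts ranged from 5 to 7 over time in wt cells, 2 to 6 in KO#1 and 1 to 3 in KO#2. Against wt they ranged from 1 to 2 in KO#1 and 2 to 7 in KO#2 at 0 h, and from 0 to 1 in KO#1 at 24 h. In KO#2 against KO#1 they were 0 to 1 at 0 h and 0 to 2 at 24 h, and 0 to 1 for the KO#2 response. Signs turned for Nkd1 over time in wt cells (-0.11 to 0.61), Tcf7 and Sp5 over time in KO#2 (-0.30 to 0.55 and -0.84 to 2.63), Tcf7l1 in KO#1 against wt at 0 h (-0.75 to 0.12), and Tcf7l1 and Tcf7l2 in the KO#1 response (-0.26 to 0.61 and -0.33 to 0.15). Of the 480 fold changes with a library left out, 412 kept their direction and call. The causes of these changes were not tested. Depth limits Sp5, Dkk1 and Nkd1, at 0 to 33 counts a library.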
